A study of Mus musculus with 27 samples.

Results

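The insulin-like growth factor 1 (IGF1) axis was followed through 9 genes of the mouse tibialis anterior muscle, chosen by symbol from a table of 54532 genes. The 9 genes were Igf1, Igf1r, Igf2r, Igfbp3, Igfbp4, Igfbp5, Igfbp6, Igfbp7 and Igf2bp2. Bulk RNA sequencing was performed on 27 muscles of 8-week-old male C57BL/6 mice without a stated genetic change. The no injury group held 5 muscles. The other groups were taken at 3, 7, 14 and 21 days after volumetric muscle loss (VML), a surgical defect in which 40% of the muscle is removed, and held 5, 6, 6 and 5 muscles. The sources differ on whether 1 or both legs were operated, and they do not state that each muscle came from a separate mouse, so p-values below measure the spread between these samples. No sham operation is named for the muscles without injury. Levels are given in FPKM, fragments per kilobase of gene relative to the depth of the library. All 9 genes were among the 14630 that passed the filter on low values, which asked for 5 or more samples at 0.5 FPKM or above. Igf2bp2 met it in only 7 samples, which included all 5 of day 3 and none without injury.

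IGF1 is a secreted growth factor, made in liver and also within muscle, that drives fibre growth and the proliferation and differentiation of myoblasts. It signals through the tyrosine kinase IGF1R, insulin receptor substrates and the PI3K/AKT/mTOR and RAS/MAPK cascades. IGF2R carries no kinase, and takes up IGF2 and mannose 6-phosphate tagged enzymes for delivery to lysosomes. The IGF binding proteins hold most extracellular IGF, which can shield it from its receptor or keep a store of it near cells, and IGFBP7 binds IGF with low affinity. IGF2BP2 is an RNA-binding protein that takes its name from IGF2 mRNA and regulates the stability and translation of bound transcripts.

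The reads recovered from FPKM totalled 14376395 to 24436763 per sample. The denominators held in FPKM were 0.747 to 1.48 times these totals, lowest without injury (mean 0.782) and highest at day 3 (mean 1.25). Of the 27 libraries, 9 lay nearer to the mean profile of another group than to their own, of which 1 was from day 3, 3 from day 7, 3 from day 14 and 2 from day 21. Replicate 3 of day 7 was nearest to no injury, and replicates numbered 5 of day 3 and day 7 were each nearest to the other's group. The labelled tissue was checked with 6 muscle fibre markers (Ckm, Acta1, Myh4, Myh1, Tnnt3 and Atp2a1), whose summed FPKM spanned 57189 to 73488 in muscles without injury and 17643 to 39909.8 in those of day 3. No marker of this list was absent. The libraries did not mark strand, and 3 members overlap genes on the other strand. Igf2r overlaps the antisense RNA Airn, listed at 1.21 to 3.57 FPKM. Igfbp7 overlaps Polr2b at 3.51 to 8.74 FPKM and Gm34648 at up to 0.889 FPKM. Igf1 overlaps Igf1os at up to 0.585 FPKM. Reads of these pairs cannot be told apart where they overlap.

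The ligand, the clearance receptor and part of the binding proteins were higher after VML, whereas the signalling receptor Igf1r was not called at any time under the deposited scaling. At day 3, Igf1, Igf2r, Igfbp4, Igfbp7 and Igf2bp2 rose, 5 of 9 genes, at an adjusted p under 0.05 (limma, Benjamini-Hochberg over all tested genes). Of these, Igf2bp2 passed the filter only through day 3, the group in which it was high. At the same time 43.2% of all tested genes were called, and 23.4% were called higher. At day 7, Igf1, Igfbp4, Igfbp5 and Igfbp7 rose, 4 of 9 genes, where 29.4% of all genes were called and 15% called higher. At day 14, Igfbp4, Igfbp5 and Igfbp7 rose, 3 of 9 genes, where 20.3% of all genes were called and 9.02% called higher. At day 21 limma called 0 of 9, where 3.43% of all genes were called and 1.74% called higher. An unadjusted p under 0.05 was reached by 3 of the 9, a count for which these shares at an adjusted p are no background. No member was called lower at any time, except Igf1r at day 3 when samples were quantile normalized (-0.22, adjusted p = 0.0320). In bulk tissue, more cells that make a transcript and more transcript per cell cannot be told apart.

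The median difference of the 9 genes from no injury, on the log2(FPKM + 1) scale, was 0.51, 0.63, 0.43 and 0.22 in the order of days 3, 7, 14 and 21. Across all tested genes the median was 0.01, 0.03, 0.02 and 0.01. Groups that did not overlap, with every injured muscle above every muscle without injury, were seen for 4 of 9 genes on day 3 (19.8% of all genes), 3 on day 7 (7.25%), 3 on day 14 (7.67%) and 1 on day 21 (5.26%). The 4 of day 3 include Igf2bp2, which passed the filter only through that day. The scaling of samples moved these counts. When samples were instead scaled to the same summed FPKM, or by their own number of reads, 8, 7 and 5 members were called higher at days 3, 7 and 14, and the median of all genes shifted upwards by 0.49, 0.45 and 0.27 under the first and by 0.39, 0.33 and 0.23 under the second. Under the first, 46.9%, 43.1% and 11.5% of all genes were then called higher at these days, and 2.2%, 1.43% and 0.731% lower. Under the second, 44.7%, 36.5% and 15.5% were called higher, and 4.22%, 2.9% and 1.97% lower. Quantile normalization shifted the median of all genes by -0.13 at day 3, with 19% called higher and 25.5% lower, and it called 5 members, with Igf1r (lower) in place of Igf2r.

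**Figure D1:**
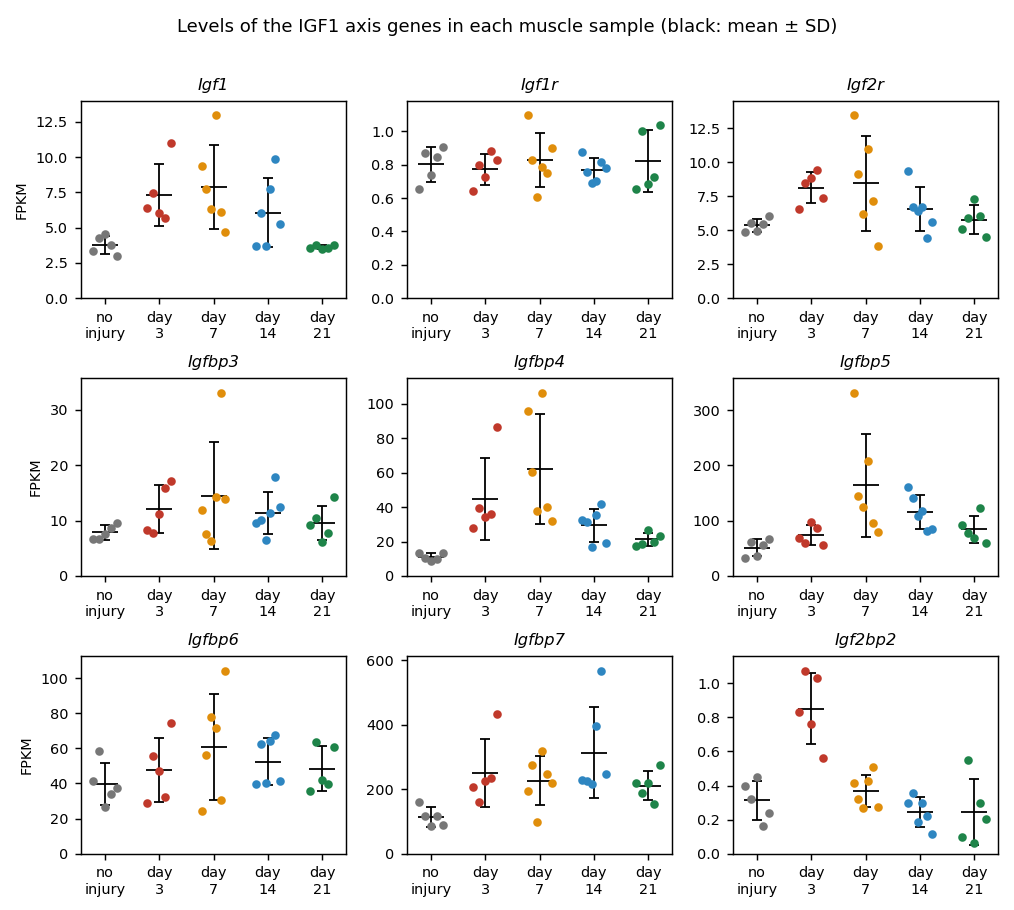
FPKM of the 9 genes in each of 27 muscles, by group, with a linear axis from 0 in each panel. Points are samples, and black marks are the mean ± SD of the group. Igfbp4 without injury stays at 8.41 to 13.2 FPKM, below every injured muscle, while the points of Igf1r overlap in all groups.

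Igf1, the ligand, was higher in every muscle of day 3 and day 7 than in any without injury, and lay within the range without injury at day 21. Igf1 spans chr10:87858265-87937042 on the + strand of GRCm38, and its levels without injury were 3.32, 4.26, 4.53, 3.74 and 2.99 FPKM. At day 3 the 5 muscles held 6.40, 7.46, 6.01, 5.70 and 11 FPKM, 1.94 times the mean without injury. The 2 sets did not overlap, and replicate 5 of day 3 stood above the other day 3 muscles. The difference was 0.78 ± 0.22 (± SE here and below) on the log2(FPKM + 1) scale, with an adjusted p of 0.00559. At day 7 Igf1 ranged from 4.72 to 13 FPKM with a median of 7.03, again above all muscles without injury. Its difference of 0.84 ± 0.21 had an adjusted p of 0.00456. The exact permutation tests gave 0.00794 and 0.00433 for days 3 and 7, the smallest p these group sizes allow.

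At day 14 Igf1 ranged from 3.69 to 9.89 FPKM with a median of 5.67, and 4 of 6 muscles lay above all muscles without injury. The difference of 0.51 ± 0.21 did not pass (adjusted p = 0.0856). It was called under 4 of 15 alternatives, and without replicate 1 or replicate 3 of day 14 (0.61 in both fits, adjusted p = 0.0461 and 0.0403). At day 21 the 5 muscles held 3.56, 3.77, 3.47, 3.59 and 3.78 FPKM, within the range without injury. Their spread was the smallest of the 5 groups, with a coefficient of variation of 3.71% against 16.9% without injury and 39.9% at day 14. The difference from no injury was -0.03 ± 0.22, with a 95% interval of -0.48 to 0.42. By mean level, day 7 (7.86 ± 2.96 FPKM) and day 3 (7.32 ± 2.17) came first, then day 14 (6.06 ± 2.42), no injury (3.77 ± 0.636) and day 21 (3.63 ± 0.135), and no neighbours in this order were separated by more than their spread, with the samples of each pair overlapping.

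Igf1r, the tyrosine kinase receptor of IGF1 (chr7:67952827-68233668, + strand), was low and even through the time course. Its 5 muscles without injury held 0.653, 0.872, 0.736, 0.847 and 0.907 FPKM, and its 5 muscles of day 3 held 0.642, 0.797, 0.725, 0.881 and 0.826. All 27 values lay between 0.608 and 1.10 FPKM, from 145 to 495 reads per sample. The groups overlapped at every time, and the group means of 0.803 ± 0.106, 0.774 ± 0.0928, 0.829 ± 0.164, 0.770 ± 0.0709 and 0.820 ± 0.185 FPKM (SD) from no injury to day 21 differed by less than their spread. On the log2(FPKM + 1) scale the 95% interval of the difference from no injury was -0.20 to 0.16 (day 3), -0.16 to 0.19 (day 7), -0.20 to 0.15 (day 14) and -0.17 to 0.19 (day 21). These intervals refer to the deposited scaling. With samples scaled to the same summed FPKM, the difference at day 3 was 0.35, against a median of 0.51 for all tested genes under the same scaling. With quantile normalization it was -0.22, called lower at an adjusted p of 0.0320, against a median of -0.12 for all tested genes, so that the sign and the call for Igf1r at day 3 depended on the scaling.

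Igf2r, the clearance receptor (chr17:12682406-12769664, - strand), was higher at day 3 in every muscle, by a margin close to the threshold of the test. Its levels were 4.90, 5.53, 4.92, 5.44 and 6.06 FPKM without injury and 6.58, 8.45, 8.82, 9.45 and 7.40 FPKM at day 3. The samples did not overlap, and the ratio of means was 1.52. The difference of 0.51 ± 0.21 had an adjusted p of 0.0453, and the call was kept in 12 of 27 fits that left out a single sample, with adjusted p from 0.0160 to 0.105. Without the replicates numbered 5 of days 3 and 7 the adjusted p was 0.0537. At day 7 the samples ranged from 3.81 to 13.5 FPKM with a median of 8.15, and 5 of 6 lay above the muscles without injury while replicate 6 was the lowest of all 27. The difference of 0.48 ± 0.20 did not pass (adjusted p = 0.0648). Mean levels were 6.55 ± 1.63 FPKM at day 14 and 5.77 ± 1.07 at day 21, overlapping with no injury, and neither was called (adjusted p = 0.442 and 0.873).

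Igfbp4, a binding protein that inhibits IGF action until it is cleaved, had the largest differences of the 9 genes at days 3 and 7. The gene lies at chr11:99041244-99054392 on the + strand. Without injury its levels were 13.2, 10.3, 8.41, 10.1 and 13.1 FPKM, and at day 3 they were 27.8, 39.3, 34, 36 and 86.6 FPKM. Every muscle of day 3 lay above this range, with replicate 5 farthest from it. At day 7 the samples ranged from 32.1 to 106 FPKM with a median of 50.1, and at day 14 from 16.6 to 41.8 FPKM with a median of 31.7. At day 21 they held 17.6, 18.6, 27, 19.7 and 23.4 FPKM. All 22 injured muscles were thus above all 5 muscles without injury.

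The mean of Igfbp4 was 4.06, 5.62, 2.66 and 1.93 times that without injury at days 3, 7, 14 and 21. On the log2(FPKM + 1) scale the differences were 1.82 ± 0.31 at day 3 (adjusted p = 5.96e-05), 2.26 ± 0.30 at day 7 (adjusted p = 1.51e-05) and 1.28 ± 0.30 at day 14 (adjusted p = 0.00442). For day 21 the difference of 0.89 ± 0.31 did not pass over all genes (adjusted p = 0.107). The groups did not overlap, as for 5.26% of all genes in this direction. Groups that do not overlap fix the exact permutation p at 0.00794, the smallest that these group sizes allow. Between days 7 and 14 the level differed by -0.97 (unadjusted p = 0.00207, adjusted p = 0.154). Ordered by mean, day 7 and day 3 overlapped, as did day 3 and day 14, and day 14 and day 21, and no injury stood apart from day 21.

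Igfbp5, a matrix-associated binding protein expressed by myoblasts as they differentiate, was called later than Igfbp4. Its levels were 32.4, 60.8, 36.3, 56.8 and 66.7 FPKM without injury and 68.3, 59.8, 97.1, 87.2 and 55.9 FPKM at day 3 (chr1:72857932-72874884, - strand). These overlapped, and 3 of 5 muscles of day 3 lay above the range without injury (difference 0.56 ± 0.30, adjusted p = 0.145). At day 7 Igfbp5 ranged from 78.6 to 331 FPKM with a median of 135, and at day 14 from 80.8 to 161 FPKM with a median of 113. Every sample of both days lay above every sample without injury. The differences were 1.56 ± 0.29 at day 7 (adjusted p = 5.56e-04) and 1.19 ± 0.29 at day 14 (adjusted p = 0.00639), with ratios of means of 3.24 and 2.28. Replicate 1 of day 7 was the highest of all samples, with 53385 reads, and all 27 fits that left out a single sample kept both calls. Samples of day 21 held 92.2, 77.2, 68.9, 122 and 59.8 FPKM and 4 of 5 lay above the range without injury (adjusted p = 0.176). Days 3 and 7 differed directly by 1.0 ± 0.29, with an adjusted p of 0.0894 and 4 of 6 muscles of day 7 above all of day 3, so that the later call is not a tested difference between the days.

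Igfbp7, the low-affinity member and a product of vessel walls in many tissues, had the highest mean FPKM of the 9 genes in each group and was called at 3 times. Without injury the 5 muscles held 161, 117, 84.6, 116 and 89.8 FPKM, and at day 3 they held 207, 160.1, 225, 234 and 434 FPKM (chr5:77349240-77408041, - strand). Replicate 2 of day 3 lay just below the highest muscle without injury, and the other 4 lay above it. At day 7 the range was 99.5 to 319 FPKM with replicate 3 within the range without injury, and at day 14 it was 215 to 568 FPKM with no overlap. The differences were 1.10 ± 0.30 (adjusted p = 0.00486), 0.94 ± 0.29 (adjusted p = 0.0173) and 1.39 ± 0.29 (adjusted p = 0.00225) at days 3, 7 and 14, with ratios of means of 2.22, 1.99 and 2.76. Igfbp7 was the member with the largest difference at day 14. At day 21 the 5 muscles held 219.6, 188, 219, 153 and 276 FPKM, of which 4 lay above the range without injury (difference 0.90 ± 0.30, adjusted p = 0.0929).

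The promoter windows of the 4 members called at day 7 are shown because these genes were higher at the same time. Each window runs from 250 bases before to 50 bases after the start of the RefSeq gene on GRCm38.p6, read 5′ to 3′ on the strand of the gene, and windows were found for all 9 members. Capitals mark matches on either strand to the E-box CANNTG, the TATA box TATAAA and the GC box GGGCGG. The windows are chr10:87860861-87861160 (+ strand) for Igf1, chr11:99040994-99041293 (+ strand) for Igfbp4, chr1:72874816-72875115 (- strand) for Igfbp5 and chr5:77407996-77408295 (- strand) for Igfbp7. The Igf1 window lies inside the gene span given above, which starts at 87858265, and does not cover the start of that span.
Igf1: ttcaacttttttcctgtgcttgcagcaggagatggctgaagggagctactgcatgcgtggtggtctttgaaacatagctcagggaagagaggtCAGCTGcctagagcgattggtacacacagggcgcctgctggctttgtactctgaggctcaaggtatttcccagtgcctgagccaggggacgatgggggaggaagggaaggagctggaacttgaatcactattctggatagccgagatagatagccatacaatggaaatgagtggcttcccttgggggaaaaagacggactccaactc
Igfbp4: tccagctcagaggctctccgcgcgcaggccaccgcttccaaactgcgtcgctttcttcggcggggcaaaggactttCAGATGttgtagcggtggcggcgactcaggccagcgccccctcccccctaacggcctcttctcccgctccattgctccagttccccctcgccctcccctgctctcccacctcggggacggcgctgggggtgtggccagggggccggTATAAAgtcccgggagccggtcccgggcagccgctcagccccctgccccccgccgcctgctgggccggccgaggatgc
Igfbp5: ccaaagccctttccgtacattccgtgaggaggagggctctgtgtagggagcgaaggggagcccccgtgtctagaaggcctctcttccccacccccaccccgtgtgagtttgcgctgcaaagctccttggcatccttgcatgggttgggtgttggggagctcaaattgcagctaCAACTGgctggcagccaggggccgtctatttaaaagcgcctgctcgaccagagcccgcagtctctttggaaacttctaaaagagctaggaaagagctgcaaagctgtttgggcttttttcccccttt
Igfbp7: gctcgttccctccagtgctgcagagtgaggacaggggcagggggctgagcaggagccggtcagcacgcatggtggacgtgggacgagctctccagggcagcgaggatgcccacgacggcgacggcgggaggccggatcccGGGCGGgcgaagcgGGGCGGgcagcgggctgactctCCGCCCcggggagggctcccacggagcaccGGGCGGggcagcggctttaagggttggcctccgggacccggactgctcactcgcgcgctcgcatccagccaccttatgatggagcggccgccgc
The Igf1, Igfbp4 and Igfbp5 windows each held 1 E-box, found in 72.3% of 32851 such windows of all genes. Igfbp4 also held 1 TATA box, found in 13.6% of windows. The Igfbp7 window held none of these and had 4 GC boxes, a motif found in 35.7% of windows. A match is a run of letters and does not show that a factor binds there.

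Igfbp3 and Igfbp6 were not called at any time under the deposited scaling, and with samples scaled to the same summed FPKM both were called higher at days 3 and 7, and Igfbp6 at day 14. Fits with a replicate block also called Igfbp3 at days 3 and 7. Igfbp3, the main carrier of IGF in serum (chr11:7206086-7213923, - strand), held 6.67, 6.70, 7.62, 8.69 and 9.65 FPKM without injury and 8.31, 7.81, 11.2, 15.9 and 17.1 FPKM at day 3. At day 7 it ranged from 6.38 to 33.1 FPKM with a median of 12.9, where the highest value belonged to replicate 5, a library nearest to day 3. The groups overlapped at all times, and differences from no injury were 0.63 ± 0.29 at day 7 (adjusted p = 0.104) and 0.22 ± 0.31 at day 21 (adjusted p = 0.734). Single libraries moved these values, with a difference at day 7 of 0.37 without its replicate 5 and 0.81 without its replicate 3 (adjusted p = 0.308 and 0.0303), and at day 21 of 0.073 without its replicate 5 and 0.34 without its replicate 3. Igfbp6, which prefers IGF2 as ligand (chr15:102144362-102149511, + strand), held 41.5, 58.6, 26.6, 34.2 and 37.5 FPKM without injury and 29.1, 55.8, 47.1, 32.4 and 74.3 FPKM at day 3. At day 7 it ranged from 24.5 to 104 FPKM with a median of 64, so that this group held both the lowest and the highest of all 27 values. The 95% intervals of its differences from no injury were -0.44 to 0.88 for day 3 and -0.15 to 1.12 for day 7, which include the differences found for Igf1.

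Igf2bp2, the mRNA-binding member (chr16:22059009-22163299, - strand), was called at day 3 and at no other time. It was counted with 8 to 174 reads per sample, the fewest of the 9 genes. It passed the filter only through day 3. The 7 samples at 0.5 FPKM or above included every muscle of that day and none without injury. Without a filter, Igf2bp2 was still called at day 3. Its levels were 0.396, 0.322, 0.449, 0.165 and 0.240 FPKM without injury and 0.829, 1.07, 0.763, 1.03 and 0.559 FPKM at day 3, and these did not overlap. The ratio of means was 2.71 and the difference 0.49 ± 0.11 on the log2(FPKM + 1) scale, which understates changes at such low levels (adjusted p = 6.93e-04). At day 7 the samples ranged from 0.270 to 0.508 FPKM with a median of 0.366, all below every muscle of day 3. That direct difference was -0.43 ± 0.10, with an unadjusted p of 2.79e-04, an adjusted p of 0.0682 and an exact permutation p of 0.00433, the smallest that these group sizes allow. Means of 0.246 ± 0.0877 FPKM at day 14 and 0.242 ± 0.194 at day 21 lay near that without injury (0.314 ± 0.115), and their samples overlapped with it.

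**Figure D2:**
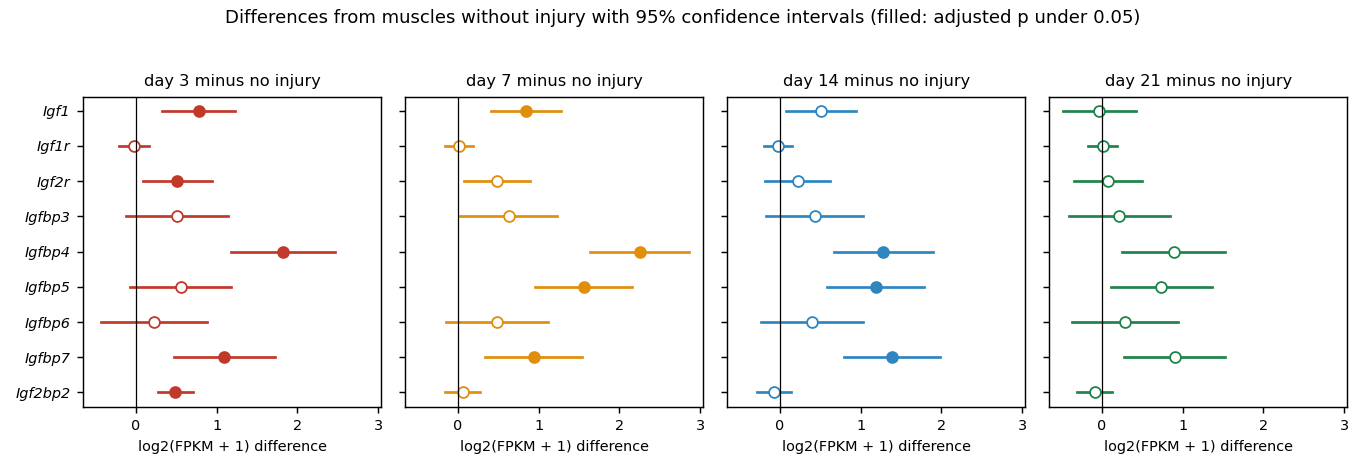
Difference of each of the 9 genes from no injury at 4 times on the log2(FPKM + 1) scale, with the 95% confidence interval from limma, and filled circles where the adjusted p is under 0.05. Igfbp4 lies farthest to the right at days 3 and 7, Igfbp7 at day 14, and no circle is filled at day 21.

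Between consecutive times limma called none of the 9 genes. From day 3 to day 7 the count was 0, where 0.0478% of all tested genes were called. From day 7 to day 14 it was 0, where 0.335% were called, and from day 14 to day 21 it was 0, where 0% were called. An unadjusted p under 0.05 was reached by 2 members at the first step (Igfbp5 and Igf2bp2). It was reached by 1 at the second (Igfbp4) and 1 at the third (Igf1, -0.54 ± 0.21, adjusted p = 0.757). The shares above are at an adjusted p under 0.05 and are no background for these unadjusted counts, which refer to the deposited scaling. With samples scaled to the same summed FPKM, 1544, 1880 and 729 of all 14630 tested genes had an unadjusted p under 0.05 at these steps in order. Without the replicates numbered 5 of days 3 and 7, the step from day 3 to day 7 had 2 members called (Igfbp5 and Igf2bp2), where 15.5% of all genes were called. Means of 8 of 9 genes were lower at day 14 than at day 7, the exception being Igfbp7, and 8 of 9 were lower at day 21 than at day 14, the exception being Igf1r.

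FPKM is per length, so levels of different genes can be set side by side. Without injury the order was Igfbp7 (114 ± 30.2 FPKM, SD, n = 5), Igfbp5 (50.6 ± 15.3), Igfbp6 (39.7 ± 11.9), Igfbp4 (11 ± 2.08), Igfbp3 (7.87 ± 1.29), Igf2r (5.37 ± 0.483), Igf1 (3.77 ± 0.636), Igf1r (0.803 ± 0.106) and Igf2bp2 (0.314 ± 0.115). Igfbp5 and Igfbp6 overlapped, as did Igfbp4 and Igfbp3, and the samples of the other neighbours were separate. The 5 binding protein genes summed to 223 ± 37.1 FPKM without injury, and to 430.1 ± 139, 527 ± 142, 522 ± 149.7 and 375 ± 35.2 FPKM on days 3, 7, 14 and 21. Every injured muscle, from 322.8 FPKM upwards, was above the highest without injury, 254.6 FPKM.

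The make-up of this sum shifted with time. Igfbp4 made up 4.99 ± 0.758% of it without injury (SD), and 10.1 ± 2.30%, 11.2 ± 3.02%, 5.58 ± 1.02% and 5.69 ± 1.04% on days 3, 7, 14 and 21. The samples of days 3 and 7, from 7.15% upwards, lay above those without injury, which reached 6.05%. Igfbp5 made up 23 ± 6.57% without injury, 18.4 ± 5.88% at day 3 and 30.1 ± 11.7% at day 7, with wide overlap. Igfbp6 was 17.6 ± 3.16% without injury and 10.2 ± 1.76% at day 14, where its range of 8.37 to 13.3% lay below that of 15.2 to 23.1% without injury. Igfbp7 kept the largest share of the group mean at each time, from 43 ± 11.2% at day 7 to 58.3 ± 9.63% at day 14. Igfbp3 stayed the smallest, between 2.18 ± 0.494% at day 14 and 3.65 ± 0.972% without injury. These shares do not depend on the scaling between samples, and are given without a test.

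**Figure D3:**
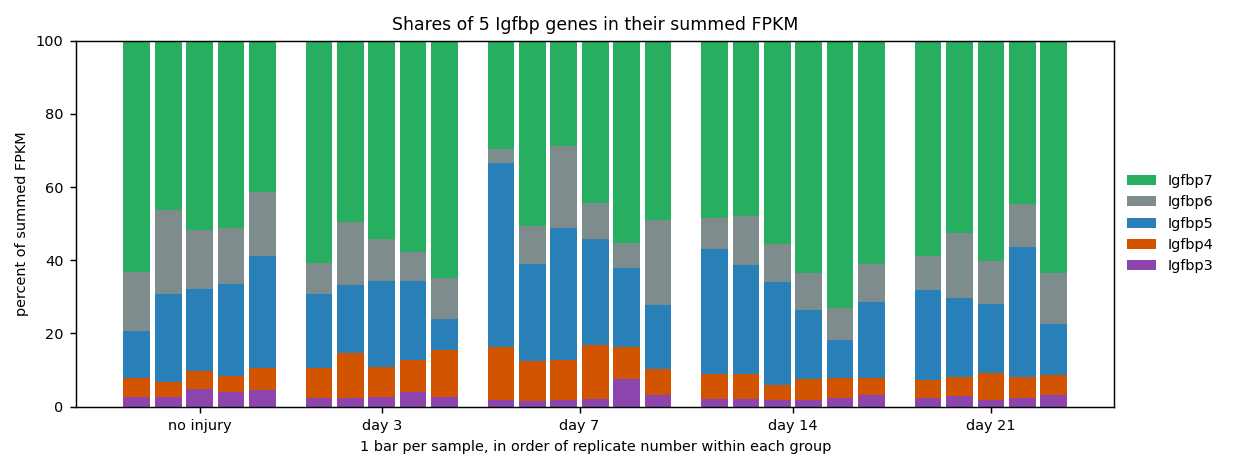
Percent of the summed FPKM of 5 Igfbp genes taken by each, with 1 stacked bar per muscle and bars grouped by time. Igfbp7 is the largest segment in most bars, and the Igfbp4 segment is tallest at days 3 and 7, with means of 10.1% and 11.2%.

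The ratio of this binding protein sum to Igf1 is also free of the scaling between samples. It was 61 ± 15.8 without injury, then 59.4 ± 11.5, 69.9 ± 14.8, 90.9 ± 21 and 103 ± 8.16 in the 4 injured groups in order of time (mean ± SD). The ranges of no injury and day 3 overlapped. At day 21 the range of 95 to 115 lay above the 36.1 to 76.7 without injury in all 5 muscles.

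Markers of several cell types moved at the same times as these genes. Counts below are under the deposited scaling unless another is named. Under it 23.4%, 15%, 9.02% and 1.74% of all genes were called higher on days 3, 7, 14 and 21. The shares called lower were 19.8%, 14.4%, 11.3% and 1.69%. Of 6 macrophage markers (Adgre1, Cd68, Csf1r, Mrc1, Itgam and Lyz2), the calls for higher expression numbered 6, 5, 2 and 0 on days 3, 7, 14 and 21. Their summed FPKM went from 16.9 to 24.7 in muscles without injury up to 311 to 2136 in those of day 3. Of 6 markers of fibro-adipogenic progenitors and fibroblasts (Pdgfra, Dcn, Lum, Dpt, Ly6a and Col1a1), 5, 4, 4 and 1 were higher at the 4 times, and their sum was 119 to 168 FPKM without injury and then 376 to 713 (day 3), 342 to 867 (day 7), 178 to 448 (day 14) and 151 to 227 (day 21). Of 6 satellite cell and myoblast markers, 4, 2, 2 and 2 were higher. Of 6 fibre markers, 5, 4, 1 and 0 were lower. Of 5 endothelial markers, 2, 1, 1 and 1 were lower and 0 higher. No marker of the fibre, satellite cell, macrophage, fibroblast or endothelial list was at 0 throughout a group. Neutrophil markers were higher for 3 of 3 tested at day 3 and 2 at day 7, and adipocyte markers for 2 of 2 tested at day 7. Pericyte and smooth muscle markers gave 1 higher and 2 lower of 5 at day 3, tendon markers 1 higher of 2 tested at days 3, 7 and 14, and Schwann cell markers 0 of 3 at any time. None of the lymphocyte and keratinocyte markers passed the filter. With samples scaled to the same summed FPKM, fibre markers were lower for 2, 0, 0 and 0 of 6 at the 4 times. Endothelial markers then gave 1 higher and 1 lower at days 3 and 7, and 0 of either later. Satellite cell markers were higher for 6, 4, 2 and 0. Macrophage markers were higher for 6, 6, 2 and 0, and fibroblast markers for 6, 6, 4 and 0. Of all genes, 46.9%, 43.1%, 11.5% and 0.287% were then called higher, and 2.2%, 1.43%, 0.731% and 0.0478% lower. The part of these cell types in the results above was not tested.

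Across the 27 samples Igf1, Igfbp4, Igfbp5, Igfbp6 and Igfbp7 had their highest Pearson r with the same marker list, that of fibroblasts. The highest for Igf2r was with the satellite cell list (0.65) and for Igfbp3 with the neutrophil list (0.60). For Igf2bp2 it was the macrophage list, and for Igf1r the endothelial list (0.37). The points share libraries and groups, so that correlations are descriptions over samples and carry no p. Igfbp4 had a Pearson r of 0.93 with the mean log2(FPKM + 1) of the fibroblast list, and 0.75 after group means were subtracted. Igf1 had 0.82 and 0.62 with the same list. Igfbp7 had 0.64 and 0.52 with it, and 0.29 and 0.76 with the endothelial list. Igf2bp2 had 0.77 and 0.45 with the macrophage list. Igfbp5 had 0.56 and 0.16 with the fibroblast list, and 0.42 and 0.46 with the satellite cell list. Between members, Igf1 and Igfbp4 had 0.84 over all samples and 0.73 within groups, and Igf2r and Igfbp5 had 0.79 within groups.

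**Figure D4:**
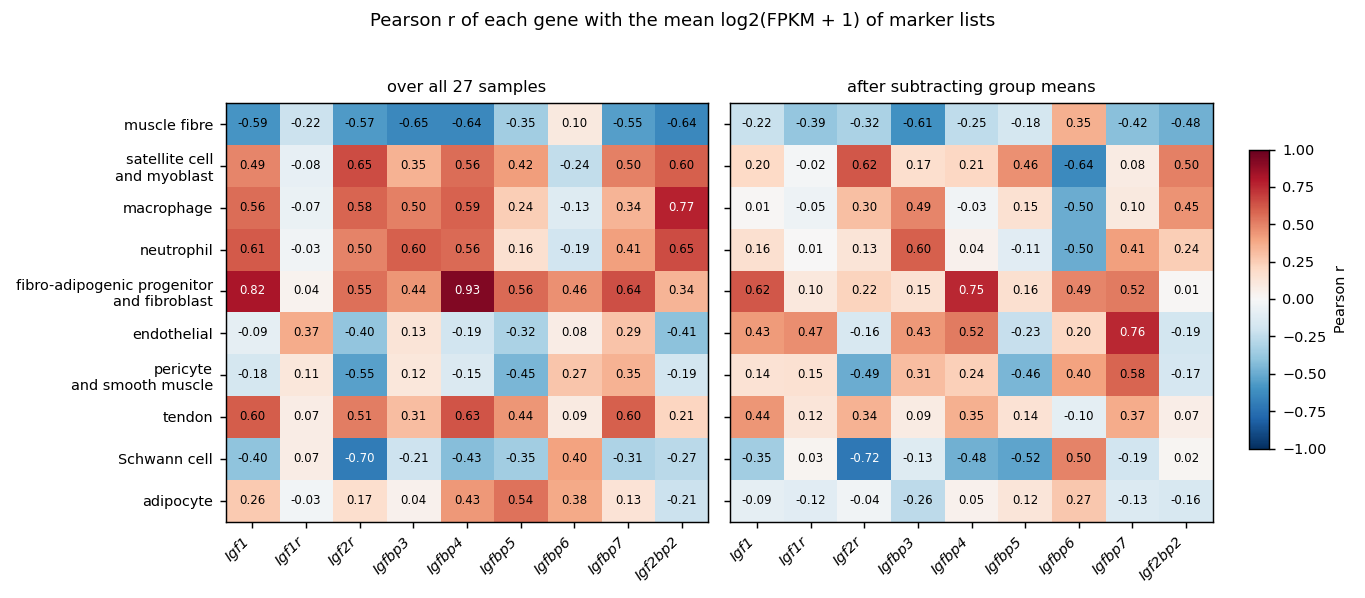
Pearson r over 27 samples between each of the 9 genes and the mean log2(FPKM + 1) of 10 marker lists, before (left) and after (right) subtraction of group means. Igfbp4 and the fibroblast list give the highest value on the left, 0.93, and Igfbp7 and the endothelial list the highest on the right, 0.76.

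The single genes most like each member, by Pearson r of log2(FPKM + 1) over 27 samples and all tested genes, differed between members. Igf1 was nearest to Plagl1 (0.87), Gxylt2 (0.85) and Mdk (0.85). Igfbp4 was nearest to Col14a1 (0.95), Antxr1 (0.95) and Cpxm1 (0.94), genes of the matrix and its cells. Igfbp5 was nearest to Sh3pxd2a (0.89), Hs6st2 (0.84) and Filip1 (0.84). Igfbp7 was nearest to Myadm (0.87), Scarb1 (0.87) and Pxdn (0.86), and within groups to Sox18 (0.88), an endothelial transcription factor, Col4a2 (0.85) and Rgs3 (0.85). Igfbp6 was nearest to Pi16 (0.80), a marker of a fibroblast subset, Tppp3 (0.77) and Nov (0.75). Igfbp3 was nearest to Swap70 (0.85), Ripk1 (0.83) and Mical1 (0.83). Within groups it was nearest to Tap1 (0.89) and H2-D1 (0.87), genes of antigen presentation, and to Ripk1 (0.85). Igf2r was nearest to Ddb1 (0.89), Cbx5 (0.88) and Zfp568 (0.86), Igf2bp2 to Smim6 (0.89), Gm17455 (0.85) and Dclk1 (0.84), and Igf1r to Sema6d (0.68), Pomt2 (0.67) and Safb (0.67).

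Of 18 further genes of the IGF system, 10 passed the filter, and 2 were called higher and 5 lower on day 3, 2 and 5 on day 7, 1 and 3 on day 14 and 1 and 0 on day 21. Of all genes, 23.4%, 15%, 9.02% and 1.74% were called higher at these times, and 19.8%, 14.4%, 11.3% and 1.69% lower. Their median difference, that of the 10 genes, was -0.20 at day 3 against 0.01 for all genes. Igfbp2, a binding protein of growing tissues, had the highest ratio to its level without injury among the 10. It had 2 reads in all 5 muscles without injury together, in replicate 1, whereas the muscles of day 3 held 2.70, 1.66, 4.76, 2.90 and 0.662 FPKM and those of day 21 held 5.42, 4.76, 2.68, 4.86 and 1.26 FPKM. At day 14 it ranged from 2.58 to 6.59 FPKM with a median of 4.07, and no muscle of these 3 days reached down to the level without injury. At day 7 replicates 3 and 6 held 0.0318 and 0.0869 FPKM and the other 4 held 2.29 to 6.89 FPKM. Pooled reads put Igfbp2 at 172 times the level without injury at day 3, with a 95% counting interval of 47.3 to 1421 that covers counting error only. The limma differences were 1.68 ± 0.43, 1.5 ± 0.41, 2.30 ± 0.41 and 2.14 ± 0.43 at days 3, 7, 14 and 21 (adjusted p = 0.00263, 0.00847, 7.11e-04 and 0.00712), so that Igfbp2 was called at day 21, where no member was. This contrast refers to the deposited scaling. With samples scaled to the same summed FPKM, 0 of the 10 genes were called at day 21. Scaled by their own number of reads, 1 was called higher, where 0.725% of all genes were.

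The insulin receptor Insr, which forms hybrids with IGF1R, fell at days 3, 7 and 14. It held 4.22, 3.96, 3.79, 5.08 and 4.26 FPKM without injury and 2.14, 2.61, 1.45, 1.69 and 2.24 FPKM at day 3, with no overlap (difference -0.81 ± 0.14, adjusted p = 6.51e-05). At day 7 it ranged from 1.89 to 3.33 FPKM with a median of 2.75, still below all muscles without injury. The docking protein Irs1 differed by -0.69 ± 0.23 at day 3 (adjusted p = 0.0165) and -0.68 ± 0.22 at day 14 (adjusted p = 0.0281), from 1.57 ± 0.354 FPKM (SD) without injury to 0.596 ± 0.229 at day 3. Irs2, a second docking protein, had a difference of -0.52 ± 0.14 at day 3 (adjusted p = 0.00339). Igfals, which stabilises IGF and IGFBP3 in serum, differed by -0.84 ± 0.27 at day 3 and -0.95 ± 0.25 at day 14 (adjusted p = 0.0127 and 0.0110). These lower calls are relative to the deposited scaling. Scaling to the same summed FPKM, which shifted the median of all genes upwards by 0.49, 0.45 and 0.27 at days 3, 7 and 14 and left 2.2%, 1.43% and 0.731% of them called lower, gave 0 of the 10 genes called lower, and Insr differed by 0.0064 at day 7.

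The adaptor proteins Grb10 and Grb14, which bind the insulin and IGF1 receptors and dampen their signal, went in opposite directions at days 3 and 7. Grb10 rose from 2.59, 3.46, 3.01, 2.38 and 2.86 FPKM without injury to 8.57, 7.48, 9.04, 9.10 and 9.52 FPKM at day 3, with no overlap and a ratio of means of 3.06 (difference 1.34 ± 0.23, adjusted p = 5.69e-05). At day 7 it ranged from 3.30 to 13.9 FPKM with a median of 7.38 (adjusted p = 6.43e-04), and both calls were kept when samples were scaled to the same summed FPKM. Grb14 was at 4.34 ± 1.16 FPKM without injury and 1.94 ± 0.976 at day 3, and its sample at 3.22 FPKM overlapped with the muscles without injury (difference -0.90 ± 0.24, adjusted p = 0.00332). With samples scaled to the same summed FPKM, Grb14 was not called lower at day 3 or day 7. Under that scaling 0 of the 10 tested genes were called lower at these days, where 2.2% and 1.43% of all genes were. The secreted protease Htra1 and the IGF axis regulators Stc1 and Stc2 were not called at any time, with Htra1 at 0.71 ± 0.29 on day 7 (adjusted p = 0.0689). Igf2, Igfbp1, Igfbpl1, Insrr, Igf2bp1, Igf2bp3, Pappa and Pappa2 did not pass the filter on low values.

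**Figure D5:**
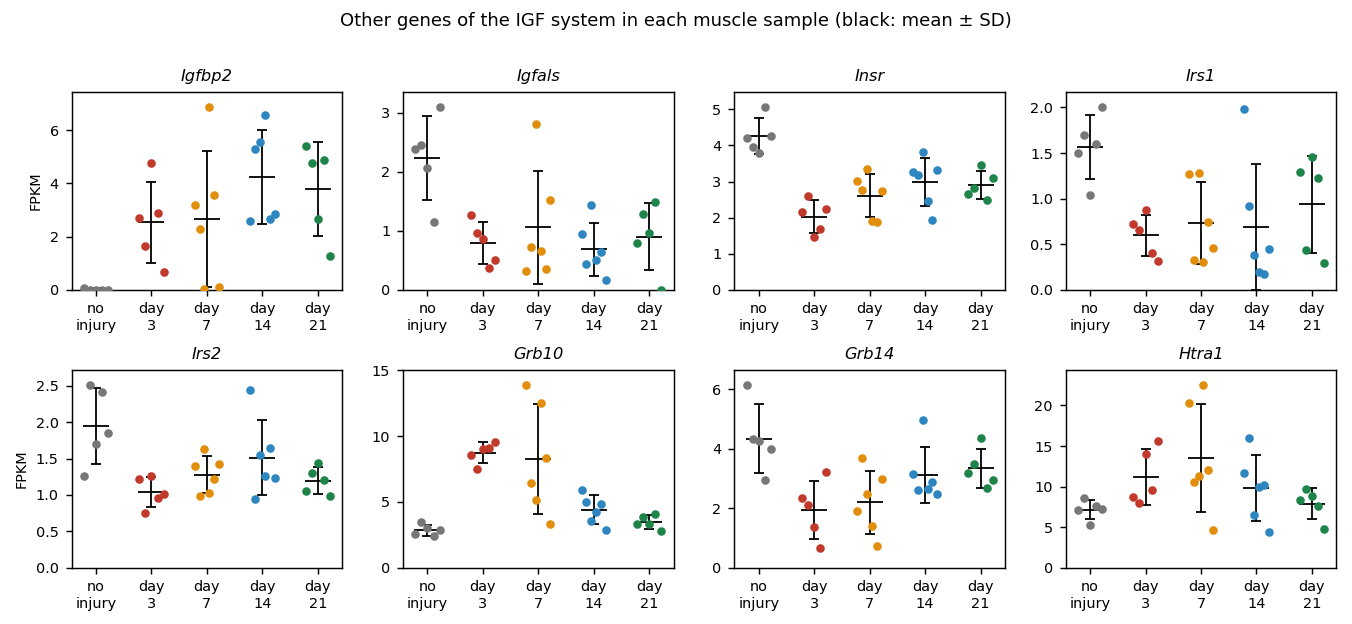
FPKM of 8 further genes of the IGF system in each of 27 muscles, by group, with a linear axis from 0. Points are samples, and black marks the mean ± SD. Igfbp2 sits at or near 0 in all muscles without injury, and Insr at day 3 lies at 1.45 to 2.61 FPKM, below the 3.79 to 5.08 FPKM without injury.

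Downstream of the receptor, 31 genes of PI3K, AKT and mTOR signalling were all tested, and 3 were called higher and 11 lower on day 3, 1 and 9 on day 7, 1 and 6 on day 14, and 0 and 2 on day 21. Named here are the 5 with the largest differences among those called at day 3. They were the transcription factor Foxo4 (-1.13 ± 0.24), the kinase Akt1 (0.89 ± 0.22) and the PI3K catalytic subunit Pik3ca (-0.81 ± 0.13). The others were the translation repressors Eif4ebp1 (0.95 ± 0.26) and Eif4ebp2 (-0.71 ± 0.22). At the 4 times 23.4%, 15%, 9.02% and 1.74% of all genes were called higher, and 19.8%, 14.4%, 11.3% and 1.69% lower. The list itself had 9.68% called higher and 35.5% lower at day 3. The median of the list was -0.20 at day 3 and -0.08 at day 21. Of 19 genes of RAS and MAPK signalling, 4 were higher and 5 lower on day 3, 3 and 4 on day 7, 1 and 3 on day 14, and 0 and 2 on day 21. The counts of day 3 are 21.1% and 26.3% of the 19, near the shares of all genes. The median of this list was -0.23 at day 3. Among its genes called there, the 5 with the largest differences began with the exchange factor Sos2 (-0.99 ± 0.16) and the adaptor Shc1 (0.93 ± 0.20). Next came the kinase Mapk3 (0.87 ± 0.19), the GTPase Nras (0.86 ± 0.17) and the phosphatase Ptpn11 (-0.72 ± 0.13). The lower calls of day 21 were Pik3ca and Tsc1 in the first list and Sos2 and Ptpn11 in the second. With samples scaled to the same summed FPKM, 10 of 31 genes (32.3%) and 5 of 19 genes (26.3%) were called higher at day 3 and 0 lower in both lists, where 46.9% of all genes were called higher and 2.2% lower. The median differences were then 0.41 and 0.44, against 0.51 for all genes.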

How the data were processed

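Total RNA of 27 tibialis anterior muscles had been poly-A selected and sequenced from non-directional libraries. The authors aligned reads with HISAT2 2.0.5 and counted them with featureCounts 1.5.0-p3 (versions as in the submitters' processing notes), and deposited FPKM with gene lengths. Groups and replicate numbers came from sample titles. FPKM times gene length gave whole numbers of reads, within 0.05 reads, for 100% of values, which set the depth (median 17398586 reads per sample). Gene positions were those of GRCm38. Of 54532 genes, 54409 were found in GENCODE M21, 98.3% at the same coordinates.

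Genes that reached 0.5 FPKM in 5 or more samples, 14630 in all, entered limma 3.58.1 (R 4.3.3) as log2(FPKM + 1), in a single fit of the 5 group means to all samples in which the variance could follow the mean. Tests were two-sided, with Benjamini-Hochberg adjustment within each of 7 comparisons and a threshold of 0.05. Single genes were also compared with exact two-sided permutation tests over samples (scipy 1.17.1), 63 for the 9 members. Python 3.11.15, pandas 2.3.3, numpy 2.4.6 and matplotlib 3.10.9 were used. The fit was tested on simulated data.

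The members and the gene lists were chosen with earlier results of these data known. Named genes were the members, the listed genes of the IGF system and the 3 genes most like each member. From each pathway list, up to 5 genes with the largest difference among those called at day 3 were also named. Tsc1 was named after its values were seen. Alternatives were pseudocounts of 0.1 and 0.5, no filter, an FPKM minimum of 1, quantile and median-ratio normalization, a common sum per sample, the own total of reads, no variance trend, replicate blocks, only the 2 groups compared, voom on recovered reads, sample quality weights, the replicates numbered 5 of days 3 and 7 left out, and each sample left out.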

Additional observations from a re-analysis of the deposited data

Results flagged for a closer look

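Within the groups of 5 or 6 samples, the 9 members and the 10 tested genes of the wider IGF system were searched for a sample far from the others. Among 95 groups of samples 2 were found, and chance alone gives about 1 in 20. Igfbp2 without injury had 0.0813 FPKM in replicate 1 and 0 in the other 4 muscles, a gap of 1.0 of the range of the group, which rests on 2 reads. Grb14 at day 14 had 4.97 FPKM in replicate 3, with the gap to the next sample taking 0.677 of the range on the log2(FPKM + 1) scale, on which this search was run. That library was nearest to day 21 in its whole profile.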

How the results depend on the processing

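The calls of Igf1 at days 3 and 7, of Igfbp4 and Igfbp7 at days 3, 7 and 14, and of Igfbp5 at days 7 and 14 were kept under all 15 alternatives and in all 27 fits without a single sample. That of Igf2bp2 at day 3 was kept under 14 alternatives and could not be tested at an FPKM minimum of 1. The call of Igf2r at day 3 was lost with no filter (adjusted p = 0.0873), with quantile normalization (0.118) and without the replicates numbered 5 of days 3 and 7 (0.0537). Its adjusted p ranged from 0.00225 to 0.118 over the alternatives, and leaving out a single sample kept it in 12 of 27 fits.

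The number of members called at days 3, 7 and 14 was 8, 7 and 5 with a common sum per sample and also with the own total of reads, against 5, 4 and 3. Under the common sum, 6868 of all genes were called higher and 322 lower at day 3, and under the own total 6533 and 618, against 3417 and 2899. At day 21 the count was 2 in fits of only the 2 groups (10.1% of all genes called) and 3 with sample quality weights (16.9%), against 0 (3.43%). From day 3 to day 7 it was 3 with quality weights (12.9% of all genes) and 2 without the replicates numbered 5 (15.5%), against 0 (0.0478%), and from day 7 to day 14 it was 1 with quality weights (0.376%, against 0.335%). Without a single sample the count from day 3 to day 7 was 0 to 2. It was 1 without replicate 5 of day 3, where 4.99% of all genes were called. It was 2 without replicate 5 of day 7, where 12.2% were called. Same-numbered samples had a median correlation of -0.0031 in their deviations, from -0.52 to 0.57, and 15 of 51 pairs were over 0.1. Samples of different number had a median of 0.0029, from -0.49 to 0.61. By letter the medians were 0.020 for the same and 0.00067 for different letters. Such wide ranges cannot decide whether samples share a mouse or a batch, which was not tested. With a replicate block by number 6, 6, 4 and 0 members were called at days 3, 7, 14 and 21, where 44.8%, 34.1%, 25.2% and 5.43% of all genes were called, and with a block by letter 6, 6, 3 and 2, where 44.3%, 33.9%, 25.3% and 8.43% were. Both blocks added Igfbp3 at day 3 (adjusted p = 0.0496 by number and 0.0479 by letter) and day 7 (0.0264 and 0.0192) and Igf2r at day 7 (0.0147 and 0.0293). The block by number added Igf1 at day 14 (0.0480), and that by letter Igfbp4 and Igfbp7 at day 21 (0.0328 and 0.0278). Igf1 at day 14 was also called with a common sum (0.0431), the own total (0.0299) and quality weights (0.0240), and Igf1r was called lower at day 3 with quantile normalization (-0.22, 0.0320).

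Differences that changed sign were otherwise not called in either setting, apart from those of the further genes named last, and their cause was not tested. With a common sum these were Igf1 (0.12 at day 21, -0.0032 from day 3 to 7), Igf1r (0.35 at day 3, 0.18 at day 14, -0.11 from day 14 to 21) and Igf2bp2 (0.047 at day 14). With the own total they were Igf1 (0.12 and -0.024), Igf1r (0.27, 0.15 and -0.063, and -0.00030 from day 3 to 7) and Igf2bp2 (0.022). With quantile normalization they were Igf1r (-0.14 at day 7, -0.074 at day 21), Igf2r (0.039 from day 3 to 7), Igf2bp2 (-0.12 at day 7, 0.054 from day 14 to 21), Stc1 (-0.10 at day 3, -0.058 at day 21) and Stc2 (-0.086 at day 3). With a block Igf2r from day 3 to 7 was 0.074 (number) and 0.037 (letter), and Igf1 at day 21 was 0.064 (letter). With quality weights the values were -0.035 for Igf1r at day 21, 0.15 for Igf2r and 0.12 for Igfbp7 from day 3 to 7, and voom gave -0.022 for Igf1r at day 21. Without the replicates numbered 5, Igfbp3 was -0.0094 from day 3 to 7 and 0.065 from day 7 to 14, and Igfbp7 was 0.018 from day 3 to 7. The common sum turned Insr at day 7 (0.0064), Irs2 at day 7 (0.087) and day 14 (0.077), Grb14 at day 14 (0.0092), and Eif4ebp2 (0.091) and Ptpn11 (0.038) at day 3, and the own total turned Irs2 at day 14 (0.023).

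Without a single sample, signs changed within these ranges. From no injury they were -0.092 to 0.025 for Igf1 at day 21, -0.054 to 0.0047, -0.022 to 0.054 and -0.032 to 0.043 for Igf1r at days 3, 7 and 21, -0.0020 to 0.15 for Igf2r and -0.0014 to 0.15 for Stc1 at day 21. From day 3 to 7 they were -0.079 to 0.21 for Igf1, -0.17 to 0.15 for Igf2r, -0.14 to 0.30 for Igfbp3 and -0.30 to 0.061 for Igfbp7. From day 7 to 14 they were -0.38 to 0.065 for Igfbp3 and -0.30 to 0.11 for Igfbp6, and from day 14 to 21 -0.0070 to 0.069 for Igf1r and -0.097 to 0.038 for Igf2bp2. Precision is limited by 5 or 6 samples a group and, for Igf2bp2, by 8 to 174 reads.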
